A study of Mus musculus with 6 samples.

Results

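The genes described here are 46 mouse genes of germ cells and meiosis, listed by name for their work in the germline, and their measure is the DNA methylation of their promoters. A promoter was the sequence within 1 kb of any annotated transcription start of the gene, and a CpG in it was compared where at least 10 reads, summed over the replicates, covered it in each of 3 cell types. By this rule 36 of the 46 genes were covered, with 849 compared CpGs, among 22318 genes with compared promoter CpGs and 55413 annotated genes. The other 10 genes (Tdrd12, Tex12, Tex15, Rec8, Piwil1, Piwil4, Nanos2, Stk31, Syce1 and Dnd1) had no promoter CpG with any read in any library, so none lay just outside the rule. Nearest to it on the inside were Mov10l1, with 1 compared CpG of 7 that had reads, and Nanos3, with 1 of 1.

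The study asked how the DNA methylation of pluripotent cells depends on the way they were made, and it used reduced representation bisulfite sequencing (RRBS), which reads methylation at CpGs of CpG-rich fragments. Mouse embryonic stem cells (mESC) of the E14 line were at passages 20 to 30. Chemically induced pluripotent stem cells (C-iPSC) came from OG2 mouse embryonic fibroblasts, which carry an Oct4-GFP reporter, treated with small molecules, and 4F-iPSC came from the same kind of fibroblasts given Oct4, Sox2, Klf4 and c-Myc by retrovirus, both at passages 5 to 10. All cells were male and grew in medium with 15% serum, 1000 U/ml LIF, 3 µM CHIR99021 and 1 µM PD0325901. The labels give culture on mitomycin C-treated feeder fibroblasts that were removed before collection, whereas the methods of the study give plates coated with gelatin. Passage and origin differed together between mESC and both iPSC types, so they cannot be told apart.

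Each cell type had 2 replicate libraries, 6 in all. The mESC libraries held 75077465 and 53694199 reads on CpGs, the C-iPSC libraries 91533371 and 84792206, and the 4F-iPSC libraries 96534037 and 94215636. The median depth per CpG was 41 and 31 reads in mESC, 52 and 43 in C-iPSC, and 54 and 48 in 4F-iPSC. The level of a promoter in a library is the mean over its compared CpGs of the methylated share of reads, given as a percentage. Pairs of values below are replicate 1 and then replicate 2, and differences between cell types are in percentage points of the mean of both libraries.

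Most CpG-rich promoters stay free of DNA methylation in every tissue. Many germline genes are an exception: their CpG-rich promoters gain methylation in the early embryo, which helps to keep the genes silent in somatic cells. Germ cell precursors erase this methylation before the genes are used. In embryonic stem cells a variant Polycomb complex that holds Mga, Max and E2f6 also represses such genes, and it can meet DNA through E-box and E2F-type letters at their starts. RNA was not analysed here, so whether each listed gene was silent in these cells was not tested, and the genes are named by the list alone.

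Promoter sequences of 4 listed genes are shown so that the measured CpGs can be seen in their sequence. They are the stretches with at least 9 compared CpGs and no annotated exon, and they do not include the most methylated promoters of the list. Of the 46 genes, 40 matched the RefSeq promoter sequences of build GRCm38.p6. Each stretch has the 250 bases before a RefSeq start, 5′ to 3′ on the strand of the gene, with compared CpGs in capitals.
Asz1, chr6:18109062-18109311, minus strand: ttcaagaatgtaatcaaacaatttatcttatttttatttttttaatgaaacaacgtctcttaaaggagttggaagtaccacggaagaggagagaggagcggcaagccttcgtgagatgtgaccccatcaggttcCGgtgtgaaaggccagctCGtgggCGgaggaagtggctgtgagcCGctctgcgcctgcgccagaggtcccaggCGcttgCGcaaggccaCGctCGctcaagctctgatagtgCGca
Hormad1, chr3:95559427-95559676, plus strand: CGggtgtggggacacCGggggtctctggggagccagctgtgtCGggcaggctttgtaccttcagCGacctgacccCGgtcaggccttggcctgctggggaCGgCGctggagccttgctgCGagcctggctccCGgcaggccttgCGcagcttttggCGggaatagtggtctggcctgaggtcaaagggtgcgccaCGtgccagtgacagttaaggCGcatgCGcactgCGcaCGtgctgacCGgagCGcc
Sycp1, chr3:102936101-102936350, minus strand: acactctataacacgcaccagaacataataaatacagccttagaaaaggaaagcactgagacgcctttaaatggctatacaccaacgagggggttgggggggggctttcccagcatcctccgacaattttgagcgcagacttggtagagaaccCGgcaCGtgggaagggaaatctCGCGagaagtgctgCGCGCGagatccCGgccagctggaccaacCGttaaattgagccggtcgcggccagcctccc
Sox30, chr11:45980060-45980309, plus strand: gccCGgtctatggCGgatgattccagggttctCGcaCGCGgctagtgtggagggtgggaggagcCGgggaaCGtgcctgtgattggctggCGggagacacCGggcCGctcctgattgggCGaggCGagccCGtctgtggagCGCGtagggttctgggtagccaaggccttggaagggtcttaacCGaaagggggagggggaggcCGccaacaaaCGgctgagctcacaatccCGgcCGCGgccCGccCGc
In the Asz1 stretch, 9 of 15 CpGs were compared, with a median level of 26.9% in mESC, 46.9% in C-iPSC and 65.7% in 4F-iPSC. The 18 compared CpGs of 19 in the Hormad1 stretch had medians of 12.5%, 32.9% and 55.0% in the same order. For Sycp1 the 9 compared CpGs of 17 had medians of 43.2%, 60.8% and 68.2%. Sox30 stood apart: all 23 CpGs of its stretch were compared, and their medians were 1.19%, 5.00% and 5.26%.

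Across the 36 covered genes, promoters were least methylated in mESC, higher in C-iPSC and highest in 4F-iPSC. The median promoter level was 18.0% in mESC (15.1% and 19.6% in its libraries), 31.3% in C-iPSC (24.0% and 38.1%) and 41.9% in 4F-iPSC (44.8% and 40.8%). All 22310 gene promoters tested had medians of 3.71%, 3.96% and 4.98%. Their library medians overlapped between cell types, with 4.00% and 3.42% in mESC, 3.29% and 4.67% in C-iPSC, and 3.69% and 6.26% in 4F-iPSC. In the median of the listed genes no library of a cell type reached into the range of another, and the C-iPSC libraries lay farthest apart. Without mESC replicate 2 the mESC median was 13.9%, and without 4F-iPSC replicate 2 the 4F-iPSC median was 44.8%.

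The listed promoters were not uniform. In mESC, 12 of the 36 were under 10% and 10 were at 30% or more. In C-iPSC 8 were under 10% and 19 at 30% or more, and in 4F-iPSC the counts were 6 and 24. Methylated promoters and promoters with little methylation thus stood side by side in the list. Levels also differed by CpG content, for which promoters were divided by their 500-bp windows. High-CpG promoters (HCPs) hold a window with an observed to expected CpG ratio above 0.75 and a GC share above 0.55. Low-CpG promoters (LCPs) have every window under a ratio of 0.48, and intermediate ones (ICPs) are the rest.

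The 22 listed HCPs had a median of 13.3% in mESC, 23.6% in C-iPSC and 35.6% in 4F-iPSC, where all 13350 HCPs had 2.65%, 2.74% and 3.44%. In single libraries all HCPs had 2.87% and 2.42% in mESC, 2.28% and 3.21% in C-iPSC, and 2.43% and 4.44% in 4F-iPSC. These library medians overlapped, and small differences at low levels lie within their spread. The 13 listed ICPs had medians of 38.6%, 52.9% and 70.8%, where all 5518 ICPs had 15.0%, 20.0% and 26.2%. Thus both classes of listed promoter were above the median of their class in all 3 cell types. Nanos3 was the only listed LCP, with 25.0%, 31.7% and 29.9%, where all 3442 LCPs had medians of 50%, 69.2% and 83.3%. Its values rest on 1 CpG with 5 to 16 reads a library, and its libraries were at 0% and 50% in mESC, 6.25% and 57.1% in C-iPSC, and 45.5% and 14.3% in 4F-iPSC, so nothing was read from its place in the class.

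**Figure D1:**
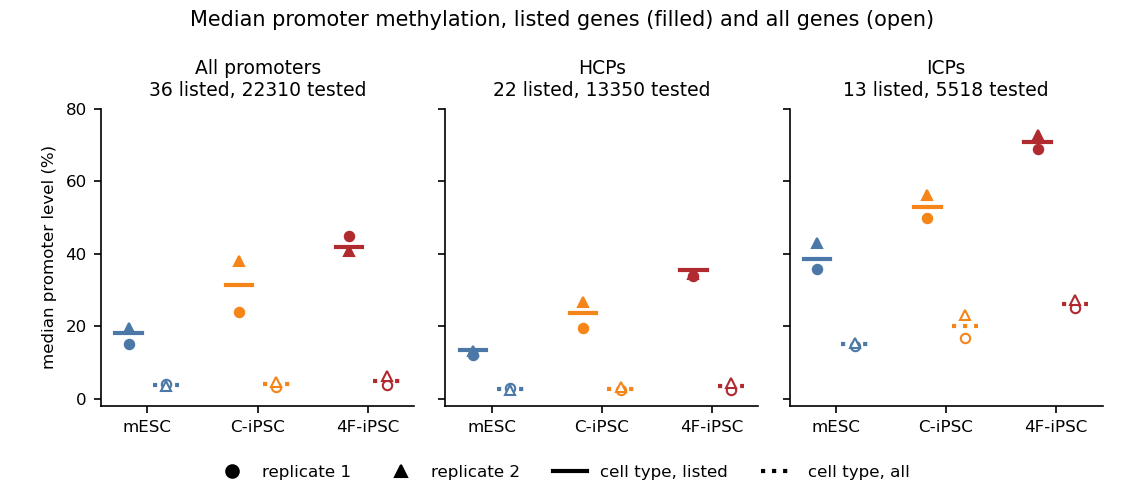
Median promoter level (%) of the listed genes (filled points) and of all gene promoters tested (open points) in mESC, C-iPSC and 4F-iPSC, for all promoters, HCPs and ICPs; points are single libraries and bars the cell type. The listed medians go from 18.0% in mESC to 41.9% in 4F-iPSC, those of all promoters from 3.71% to 4.98%.

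The comparison of 4F-iPSC with mESC asked how far factor-induced cells differ from embryonic stem cells at these promoters. Of the 36 covered genes, 27 were more methylated in 4F-iPSC and 0 were less methylated, at an adjusted p under 0.05 in a quasi-binomial test of the promoter's reads across libraries. Among all 22310 gene promoters the share called higher was 22.5%. The median difference of the listed genes was 23.0 points, from 0.385 to 53.9 points, beside 1.38 points for all promoters. Both 4F-iPSC libraries lay above both mESC libraries in 32 of the 36 genes, against 48.5% of all promoters, and in 4 genes the libraries overlapped. By class, 16 of 22 listed HCPs (72.7%) were called higher, against 6.01% of all HCPs, and 11 of 13 listed ICPs (84.6%), against 39.6% of all ICPs. The median difference was 18.6 points for listed HCPs, against 0.835 for all HCPs, and 30.2 points for listed ICPs, against 9.48 for all ICPs. A rise was not particular to the list: all LCPs had a median difference of 27.6 points, and 59.2% of them were called higher.

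Single CpGs were counted as strongly hypermethylated where reads summed over replicates gave an unadjusted p under 0.05 in Fisher's exact test (two-sided) and the level differed by more than about 1/3 of the reads. That p covers counting error only, since it takes PCR reads as independent molecules and leaves out the spread between libraries. In 4F-iPSC against mESC, 190 of the 849 CpGs (22.4%) met this and 0 were strongly hypomethylated, where 2.25% of the 578966 compared promoter CpGs were strongly hypermethylated. They lay in 25 genes, with 36 in Dazl alone. Without mESC replicate 1 there was 1 strongly hypomethylated CpG. At an unadjusted p under 0.05 the quasi-binomial test gave 28 listed promoters higher and 0 lower, where 29.0% of all promoters were higher. On the promoter levels limma gave 30 higher and 0 lower at that threshold, where 30.9% of all promoters were higher, and 26 after adjustment, where the share was 26.3%. Of the 27 genes limma did not call Ddx4 (adjusted p = 0.119), Sox30 (adjusted p = 0.0858), Sycp1 (adjusted p = 0.121) and Tdrd6 (adjusted p = 0.303), and it added Figla, Mov10l1 and Stag3.

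Leaving out mESC replicate 1 brought the 27 calls to 18, and leaving out 4F-iPSC replicate 2 brought them to 22. Of the 27 genes, 17 were called in each of the 6 fits that left out 1 library. The 9 lost without mESC replicate 1 had adjusted p from 0.0620 for Sycp1 to 0.303 for Tdrd6. The others of these 9 were Ddx4, Piwil2, Smc1b, Sohlh1, Sox30, Stra8 and Tdrd9. Genes named for losing a call were chosen after their values were seen.

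The piRNA pathway makes small RNAs that silence transposons, and its proteins gather in granules of the germ cell called nuage. Of 18 listed genes of this group 13 were covered, and 10 were called higher in 4F-iPSC than in mESC. For this count and those of the groups below, the share among all promoters was 22.5%. The medians of the group were 15.2% in mESC, 29.9% in C-iPSC and 37.8% in 4F-iPSC. The group ranged from Tdrd7, with a difference of 0.385 points, to Fkbp6, with 53.9 points between 4F-iPSC and mESC.

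Fkbp6, a cochaperone needed for piRNA production, had levels of 20.6% and 29.1% in mESC, 41.8% and 46.5% in C-iPSC, and 72.5% and 85.0% in 4F-iPSC over 13 CpGs. The 3 cell types did not overlap, and the difference of 53.9 points between 4F-iPSC and mESC had an adjusted p of 3.58e-05. Tdrd9, a helicase with a Tudor domain, was already methylated in mESC, with 55.4% and 66.0%, against 69.7% and 80.1% in C-iPSC and 83.4% and 82.8% in 4F-iPSC over 5 CpGs. Its difference of 22.4 points between 4F-iPSC and mESC had an adjusted p of 0.00599, and 0.159 without mESC replicate 1. Mov10l1, a helicase that acts on piRNA precursors, had 50% and 66.7% in mESC, 69.2% and 82.4% in C-iPSC, and 95.0% and 84.2% in 4F-iPSC at its single CpG. Its 4F-iPSC libraries were above its mESC libraries. The quasi-binomial test did not call it (adjusted p = 0.325), whereas limma on the promoter levels did (adjusted p = 1.60e-04). This CpG had 16 to 39 reads a library, and limma was run on levels without regard to the number of reads.

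The Tudor proteins Tdrd5 and Tdrd7 of the germ cell granule were the other extreme. Tdrd5 had 6.04% and 1.83% in mESC, 3.12% and 3.64% in C-iPSC, and 3.66% and 5.39% in 4F-iPSC over 37 CpGs. Tdrd7 had 4.00% and 5.82%, 3.78% and 6.15%, and 4.92% and 5.68% over 75 CpGs. For both genes 4F-iPSC and mESC overlapped, with adjusted p of 0.754 and 0.849. With 1 library left out, the difference ran from -1.60 to 2.42 points for Tdrd5 and from -0.615 to 1.20 points for Tdrd7, so neither had a steady sign.

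Among the other genes of the group, the differences between 4F-iPSC and mESC of the 4 largest were 30.2 points for Tex19.1, 28.3 for Asz1, 22.6 for Mael and 22.3 for Tdrd1. Tex19.1 restrains retrotransposons, Asz1 anchors granules at mitochondria, Mael acts in transposon silencing, and Tdrd1 binds Piwi proteins. Their adjusted p were 0.00256, 2.84e-04, 2.07e-04 and 1.22e-04, and each was called in all 6 fits that left out 1 library. The last 4 genes, Piwil2, Rnf17, Ddx4 and Tdrd6, were called with differences from 4.53 to 19.5 points. Without mESC replicate 1, mESC replicate 2 or 4F-iPSC replicate 2, Piwil2 (adjusted p from 0.0503 to 0.116), Ddx4 (0.1 to 0.259) and Tdrd6 (0.0509 to 0.303) were not called, and limma did not call Ddx4 and Tdrd6 either.

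The synaptonemal complex joins homologous chromosomes in meiosis along an axis of protein. Here 6 of 8 listed genes were covered, and 5 were more methylated in 4F-iPSC than in mESC, with group medians of 24.6% in mESC, 37.4% in C-iPSC and 48.1% in 4F-iPSC. Hormad2, a HORMA-domain protein of unpaired axes, had 6.78% and 11.6% in mESC, 21.4% and 34.0% in C-iPSC, and 47.3% and 39.1% in 4F-iPSC over 19 CpGs. Its cell types did not overlap, and the 34.0 points between 4F-iPSC and mESC had an adjusted p of 1.13e-04. Syce2, of the central element, was low in all libraries, with 3.00% and 2.81% in mESC, 3.26% and 5.09% in C-iPSC, and 4.55% and 6.69% in 4F-iPSC over 37 CpGs. Both 4F-iPSC libraries of Syce2 lay above both mESC libraries, by 2.71 points with an adjusted p of 0.0830, which was 0.0251 without 4F-iPSC replicate 1 and 0.0452 and 0.0486 without the first and the second C-iPSC library. It was 0.283 without 4F-iPSC replicate 2, where the difference was 1.65 points, and 0.424 and 0.346 without the first and the second mESC library. With a replicate block Syce2 was called, and in both other promoter windows its difference was 0.467 points.

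The difference between 4F-iPSC and mESC was 32.2 points for Sycp3 (adjusted p = 1.76e-04) and 27.4 points for Sycp2 (adjusted p = 0.00655), which form the lateral elements. It was 31.6 points for Hormad1 (adjusted p = 1.28e-04), a partner of Hormad2 on the axis, and 14.8 points for Sycp1 (adjusted p = 0.00451), the transverse filament. Without 4F-iPSC replicate 2 the adjusted p of Sycp2 was 0.0547, and that of Sycp1 was 0.0620 without mESC replicate 1 and 0.121 by limma. Sycp2 was also not called with promoters reaching 0.5 kb to each side.

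Meiotic cohesin holds sister chromatids, and recombination starts with programmed DNA breaks. Of 6 listed genes 5 were covered and 3 were called higher in 4F-iPSC than in mESC, with group medians of 8.50% in mESC (5.50% and 11.5% in its libraries), 16.3% in C-iPSC and 29.6% in 4F-iPSC. Dmc1, the strand exchange enzyme of meiosis, was the lowest of all listed genes, with 0% and 2.52% in mESC, 1.78% and 4.16% in C-iPSC, and 2.24% and 1.17% in 4F-iPSC over 9 CpGs. Its libraries overlapped in each comparison. Spo11, which cuts the DNA, was higher in 4F-iPSC by 23.3 points (adjusted p = 5.42e-04), and the cohesin subunit Smc1b by 21.1 points (adjusted p = 0.00326, and 0.129 without mESC replicate 1). Stag3, another cohesin subunit, differed by 8.10 points with an adjusted p of 0.391, which was 0.00260 by limma. The difference was 1.83 points without mESC replicate 2, 3.18 when C-iPSC replicate 1 was left out and 4.91 in the fit lacking 4F-iPSC replicate 1. It was 2.6 points with either higher read minimum and 5.19 with promoters of 2 kb upstream and 0.5 kb downstream. Of its 17 CpGs, the 2 farthest downstream had 60.0% and 55.2% in 4F-iPSC and 8.70% and 4.35% in mESC, and none of the others passed 17.1% in 4F-iPSC.

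Mei1, needed for meiotic breaks, was higher in 4F-iPSC than in mESC by 16.0 points (adjusted p = 3.34e-05) and held 2 sets of starts that differed in level. Around its first starts 15 CpGs had 5.98% and 6.47% in mESC, 9.85% and 12.1% in C-iPSC, and 18.7% and 18.8% in 4F-iPSC. At the downstream starts 4 CpGs had 60.0% and 58.4%, 70.3% and 79.0%, and 87.5% and 89.3%. In both sets the cell types did not overlap. Tdrd7 also had 2 starts of unlike level: 6 CpGs at the upstream start had 26.5% and 42.1% in mESC and 30.6% and 28.4% in 4F-iPSC, and 69 CpGs at the downstream start had 2.05% and 2.67% and then 2.69% and 3.70%.

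Of the 10 listed RNA-binding proteins, transcription factors and chromatin factors of germ cells, 8 were covered and 6 were called higher in 4F-iPSC than in mESC, with group medians of 29.8% in mESC, 47.5% in C-iPSC and 68.7% in 4F-iPSC. Sohlh2, a helix-loop-helix factor of spermatogonia and young oocytes, had 34.6% and 34.6% in mESC, 50% and 55.7% in C-iPSC, and 65.8% and 70.8% in 4F-iPSC over 31 CpGs. Sohlh1, its partner, had 41.2% and 60.8%, 71.9% and 71.1%, and 86.3% and 83.8% over 3 CpGs. Neither gene had overlapping cell types, and 4F-iPSC exceeded mESC by 33.7 points for Sohlh2 (adjusted p = 1.61e-06) and by 34.1 points for Sohlh1 (adjusted p = 0.00735). The call of Sohlh1 was lost without mESC replicate 1 (adjusted p = 0.0861) or 4F-iPSC replicate 1 (adjusted p = 0.0556).

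Stra8, which retinoic acid induces as germ cells enter meiosis, had 14.8% and 31.0% in mESC, 31.9% and 52.4% in C-iPSC, and 65.7% and 72.3% in 4F-iPSC over 3 CpGs. These 3, of 14 CpGs with reads, lay 440 to 765 bp downstream of the nearest start, so CpGs close to a start were not measured. Both 4F-iPSC libraries were above all others, with 46.1 points over mESC (72.0 without mESC replicate 2) and an adjusted p of 0.0227. That p was 0.128 without mESC replicate 1, 0.0569 without 4F-iPSC replicate 1 and 0.154 without 4F-iPSC replicate 2, and Stra8 was not called with promoters of 0.5 kb to each side or of 2 kb upstream and 0.5 kb downstream.

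Brdt, a testis protein that binds acetylated histones, had the highest mESC level of the list, with 58.5% and 70.7%, against 88.2% and 93.8% in C-iPSC and 94.0% and 93.9% in 4F-iPSC over 3 CpGs. Its 3 CpGs lay 491 to 649 bp downstream of the nearest start. Its mESC libraries were the low ones, 29.3 points under 4F-iPSC (adjusted p = 0.00131), and the call was lost in the same 2 other windows. Figla, an oocyte transcription factor, had 64.4% and 53.2% in mESC, 74.2% and 60.0% in C-iPSC, and 82.8% and 91.7% in 4F-iPSC over 2 CpGs. The mESC and C-iPSC libraries of Figla overlapped, and those of 4F-iPSC were above both. The quasi-binomial test did not call Figla (adjusted p = 0.2), whereas limma, which does not take reads into account, did (adjusted p = 0.00109). Figla had 10 to 39 reads a library.

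Sox30, a factor of late sperm development with 105 compared CpGs, was low, with 2.68% and 2.71% in mESC, 4.43% and 6.31% in C-iPSC, and 6.20% and 7.26% in 4F-iPSC. Its 4F-iPSC libraries lay above those of mESC by 4.03 points, with an adjusted p of 0.00380 that was 0.0944 without mESC replicate 1 and 0.0858 by limma. Dazl, an RNA-binding protein of early germ cells, was higher in 4F-iPSC than in mESC by 24.8 points (adjusted p = 3.95e-06). Nanos3, which protects germ cell precursors, had 1 CpG with libraries of 0% and 50% in mESC, so its replicates differed more than the cell types.

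Of the 4 other germ cell proteins, all covered, 3 were called higher in 4F-iPSC than in mESC, with group medians of 17.1% in mESC, 33% in C-iPSC and 57.6% in 4F-iPSC. Rpl10l, a ribosomal protein that stands in for an X-linked copy in spermatocytes, had 4.07% and 7.19% in mESC, 18.6% and 28.5% in C-iPSC, and 47.0% and 55.4% in 4F-iPSC over 18 CpGs. Tex101, a surface protein of germ cells, had 39.6% and 56.1%, 70.4% and 75.6%, and 89.7% and 85.9% over 9 CpGs. Slc25a31, the ADP/ATP carrier of germ cell mitochondria, had 24.7% and 32.5%, 40.7% and 45.4%, and 65.9% and 62.3% over 33 CpGs.

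In these 3 genes no cell types overlapped. The differences between 4F-iPSC and mESC were 45.6 points for Rpl10l (adjusted p = 3.24e-05), 40 for Tex101 (adjusted p = 1.93e-05) and 35.5 for Slc25a31 (adjusted p = 6.35e-06), and all 3 were called in each fit that left out 1 library. Tex14, of the bridges between germ cells, was at 3.94% in mESC and 7.64% in 4F-iPSC and was not called (adjusted p = 0.297).

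**Figure D2:**
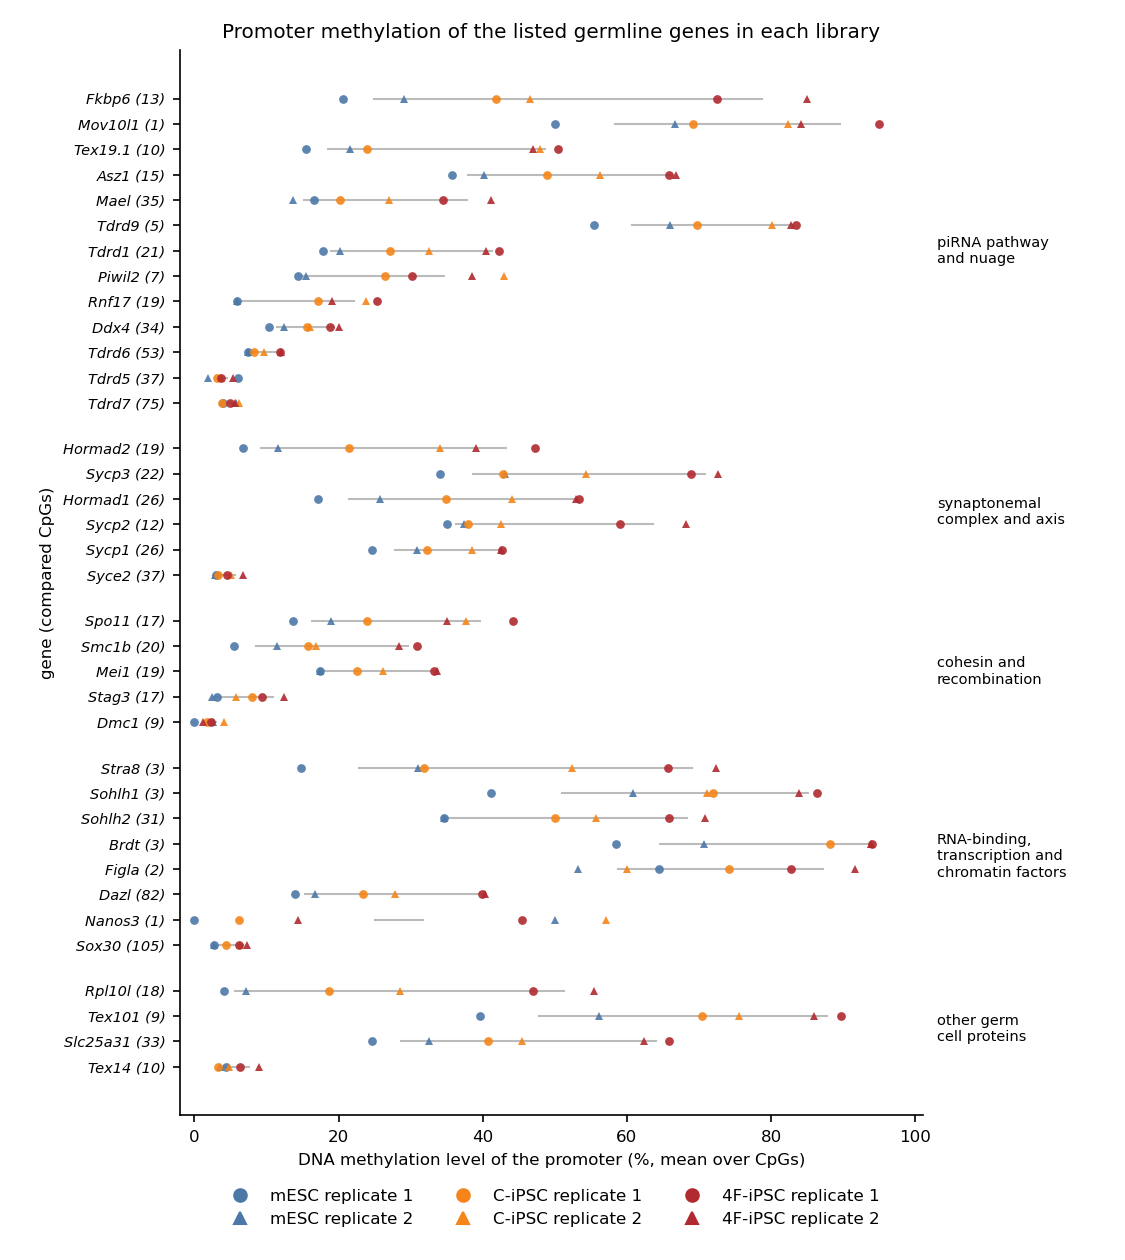
Promoter level (%) of the 36 covered genes in each of the 6 libraries, grouped by role and sorted by the difference between 4F-iPSC and mESC; circles are replicate 1, triangles replicate 2, grey lines join the lowest and highest cell type means, and compared CpGs are in brackets. In 32 genes both 4F-iPSC points lie to the right of both mESC points, and Dmc1, Tdrd5, Tdrd7 and Nanos3 are the exceptions.

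The comparison of C-iPSC with mESC asked the same of chemically induced cells, against the same mESC libraries. Of the 36 genes, 13 were called more methylated in C-iPSC and 0 less, where 6.54% of all promoters were called higher. They were Brdt, Dazl, Hormad1, Hormad2, Mei1, Rnf17, Rpl10l, Slc25a31, Sohlh2, Sox30, Spo11, Tdrd1 and Tex101. Both C-iPSC libraries lay above both mESC libraries in 29 genes, against 33.2% of all promoters, and 7 overlapped. The median difference was 10.6 points, beside 0.459 for all promoters. By class, 8 of 22 listed HCPs (36.4%) were called higher, against 0.899% of all HCPs, and 5 of 13 listed ICPs (38.5%), against 13.8% of all ICPs. All ICPs had a median difference of 3.91 points, beside 17.5 for the listed ICPs. Among all LCPs 16.8% were called higher, with a median difference of 16.4 points. The differences were 26.4 points for Brdt (adjusted p = 0.0361), 25.2 for Tex101 (adjusted p = 0.00386), 18.3 for Sohlh2 (adjusted p = 0.00269) and 17.9 for Rpl10l (adjusted p = 0.0198).

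Strongly hypermethylated CpGs numbered 25 of 849 (2.94%) in 11 genes and strongly hypomethylated ones 0, where 0.415% of all promoter CpGs were strongly hypermethylated. At an unadjusted p under 0.05, the quasi-binomial test gave 24 listed promoters higher and 0 lower, where 16.0% of all promoters were higher. For limma they were 15 and 0, where 17.8% of all promoters were higher, and 6 higher after adjustment, where the share was 7.81%. Of the 13 genes limma called Brdt, Hormad2, Rnf17, Rpl10l and Tex101, and Sohlh2 had an adjusted p of 0.176. The quasi-binomial calls depended on single libraries. Without mESC replicate 1 only Sohlh2 and Tex101 of the 13 were called, and the other 11 had adjusted p from 0.0696 for Dazl to 0.740 for Spo11. Without C-iPSC replicate 1 there were 22 calls, the 13 and 9 more. Brdt was also lost without either 4F-iPSC library (adjusted p = 0.0909 and 0.0864), with only the 4 libraries compared (adjusted p = 0.0764), in both other promoter windows and with the starts of protein-coding transcripts alone. Without C-iPSC replicate 2, Spo11 (adjusted p = 0.0629) and Sox30 (adjusted p = 0.18) were lost, and Sox30 was also lost with those starts (adjusted p = 0.0534). Leaving out CpGs in soft-masked sequence ended the calls of Spo11 (adjusted p = 0.0505) and Sox30 (adjusted p = 0.0547) as well. The strong CpGs numbered 14 without mESC replicate 1, 39 without mESC replicate 2 and 46 without C-iPSC replicate 1.

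Between 4F-iPSC and C-iPSC, 11 of the 36 genes were more methylated in 4F-iPSC and 0 less, where 4.39% of all promoters were called higher. They were Dazl, Fkbp6, Hormad2, Mael, Mei1, Rpl10l, Slc25a31, Sohlh2, Sycp3, Tdrd1 and Tex101. Both 4F-iPSC libraries lay above both C-iPSC libraries in 27 genes, against 33.8% of all promoters, and 9 overlapped. The median difference was 12.1 points, beside 1.12 for all promoters. By class, 7 of 22 listed HCPs (31.8%) were called higher, against 1.51% of all HCPs, and 4 of 13 listed ICPs (30.8%), against 9.73% of all ICPs. All ICPs had a median difference of 4.48 points, beside 13.8 for the listed ICPs. Among all LCPs 6.97% were called higher, with a median difference of 10.4 points. The difference was 34.6 points for Fkbp6 (adjusted p = 0.00972), 27.6 for Rpl10l (adjusted p = 0.00922), 22.3 for Sycp3 (adjusted p = 0.00665, and 14.5 points without C-iPSC replicate 1) and 21.1 for Slc25a31 (adjusted p = 0.00116). Piwil2, a Piwi protein chosen after its values were seen, had 26.4% and 42.9% in C-iPSC and 30.2% and 38.5% in 4F-iPSC over 7 CpGs. Its libraries of both iPSC types overlapped, with an adjusted p of 0.890.

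In this comparison 43 of the 849 CpGs (5.06%) were strongly hypermethylated, in 12 genes, and 0 strongly hypomethylated, where 0.266% of all promoter CpGs were strongly hypermethylated. At an unadjusted p under 0.05, 19 listed promoters were higher and 0 lower by the quasi-binomial test, where 16.0% of all promoters were higher. By limma 11 were higher and 0 lower, where 11.2% of all promoters were higher, and 3 were higher after adjustment, where the share was 2.23%. Of the 11 genes limma called only Fkbp6 and Rpl10l. Dazl, Slc25a31 and Sohlh2 were called in all 6 quasi-binomial fits that left out 1 library, and their adjusted p by limma were 0.216, 0.176 and 0.479. Without 4F-iPSC replicate 2 there were 4 calls, and the 7 lost had adjusted p from 0.0611 for Rpl10l to 0.179 for Tdrd1. The fit without 4F-iPSC replicate 1 gave 7 calls, with adjusted p from 0.0520 for Mei1 to 0.116 for Hormad2 among the 4 lost, and that without C-iPSC replicate 2 gave 21. Without C-iPSC replicate 1, Tdrd1 (adjusted p = 0.0537) and Hormad2 (adjusted p = 0.167) were lost, and with CpGs in soft-masked sequence left out Tdrd1 (adjusted p = 0.0595) and Tex101 (adjusted p = 0.0506) were lost. The strongly hypermethylated CpGs numbered 17 without C-iPSC replicate 1, where 1 was strongly hypomethylated, and 74 without C-iPSC replicate 2.

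**Figure D3:**
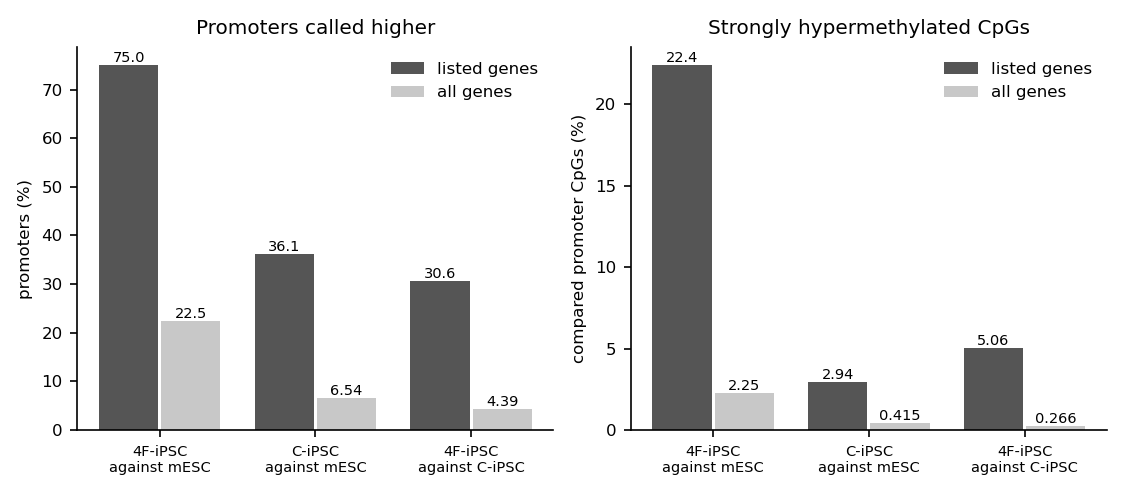
Share (%) of gene promoters called higher by the quasi-binomial test (left) and share (%) of compared promoter CpGs that were strongly hypermethylated (right) in each comparison, for the listed genes (dark bars) and all genes (light bars). The listed share of promoters is 75.0% for 4F-iPSC against mESC, 36.1% for C-iPSC against mESC and 30.6% for 4F-iPSC against C-iPSC.

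The labels do not say whether the iPSC replicates are separate lines, or whether the replicates of any cell type are separate cultures. All mESC were of the same line, so the spread between mESC lines was not measured. If the iPSC replicates are not separate lines, the spread between iPSC lines was not measured either. If the replicates of a cell type are not separate cultures, these p-values measure only the spread between the libraries. The quasi-binomial fit draws on the spread of all promoters, because 2 libraries a group give little information on the spread of any single promoter.

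Mean levels also differed by distance from the nearest start. Each range of distance holds a different set of genes, so differences between ranges mix position with gene. In the 250 bp downstream of the nearest start, 360 CpGs of 28 genes had a mean level of 13.8% in mESC, 22.4% in C-iPSC and 32.8% in 4F-iPSC. In the 250 bp upstream, 188 CpGs of 19 genes had 11.4%, 18.5% and 25.8%. From 250 to 500 bp downstream the means were 12.5%, 18.9% and 27.7% over 155 CpGs. The highest means, 45.2%, 55.7% and 68.9%, were from 500 to 750 bp upstream, where only 17 CpGs of 6 genes were compared, so the peak rests on few CpGs.

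**Figure D4:**
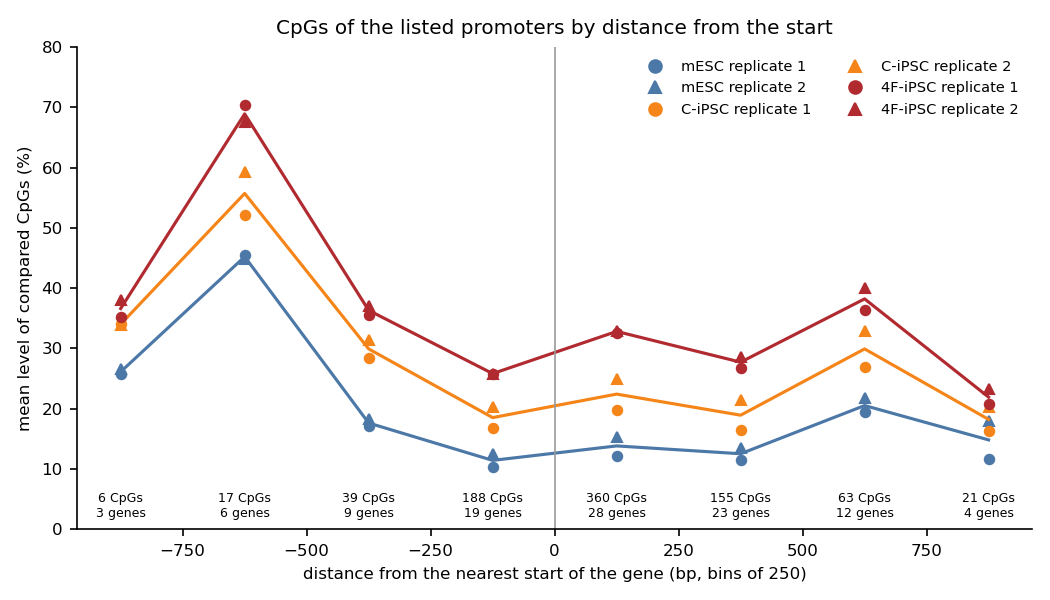
Mean level (%) of compared CpGs of the listed promoters by distance (bp) from the nearest start, in bins of 250 bp with negative values upstream; points are libraries, lines cell type means, and the CpGs and genes of each bin are printed in it. In the bin just downstream of the start the means are 13.8% in mESC, 22.4% in C-iPSC and 32.8% in 4F-iPSC.

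Within 1 promoter, single CpGs could be far apart. In Dazl, 82 compared CpGs ran from 0% to 95.8% in 4F-iPSC, with a median of 42.4%, and the median was 9.41% in mESC and 15.3% in C-iPSC. Fkbp6 was more even in 4F-iPSC, from 41.4% to 94.0% with a median of 81.5%. In Sox30 no CpG passed 37.5% in 4F-iPSC, with a median of 3.60%. Some promoters were shared with neighbouring genes: all 20 compared CpGs of Smc1b also lay in the promoter of Ribc2, 37 of Tdrd5 in that of 4930518J20Rik, 16 of Stag3 in that of Gpc2 and 15 in that of Gm43720, 10 of Tex14 in that of Rad51c and 7 of Piwil2 in that of Gm24890. Their values cannot be assigned to either gene alone.

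The RefSeq promoters, of 300 bases, were searched on both strands for the E-box CACGTG and for GCGGGA, an E2F-type motif. Of 50 sequences of the 40 matched genes, 21 (42.0%) in 17 genes held the E-box, where 7.15% of all 32851 promoters did. The E2F-type motif was in 19 of 50 (38.0%), also in 17 genes, where 20.0% of all promoters had it. Both were in 10 sequences (20.0%) of 9 genes, where 1.99% of all promoters held both. A match is a description of the letters and not evidence of binding.

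The CpG at the centre of an E-box was often less methylated than its neighbours, a pattern seen in the values first and then counted, with no test. Of 10 compared CpGs of listed promoters inside CACGTG, 8 had a compared CpG within 50 bp on both sides, in Dazl, Ddx4, Hormad1, Rnf17 and Sycp1. In 4F-iPSC all 8 were below the mean of their neighbours, with a median of 5.38% against 27.0%. In C-iPSC 7 of 8 were below, with 4.67% against 15.5%, and in mESC 7 of 8, with 1.48% against 4.29%. Of the 656 other CpGs of listed promoters with such neighbours, 55.0% were below in 4F-iPSC, 54.6% in C-iPSC and 55.3% in mESC.

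The Hormad1 stretch printed above holds 2 such CpGs, each written caCGtg. The CpG 55 bases before the start had 2.74% of 219 reads methylated in 4F-iPSC, between neighbours of 19.5% and 30.1%. At 18 bases before the start it was 9.05% of 221 reads, between 56.7% and 56.8%. In the Sycp1 stretch the E-box CpG had 22.3% of 385 reads, between 71.9% and 52.6%. In all 3 cases the E-box CpG was the low point, and in both libraries of 4F-iPSC: 2.94% and 2.56%, 6.67% and 11.2%, and 21.0% and 23.4%.

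Among all gene promoters, 1297 CpGs inside CACGTG had compared neighbours on both sides, most of them with little methylation. In 4F-iPSC 75.6% of these were below their neighbours, by a median difference of -1.16 points, beside 54.9% of other promoter CpGs. The shares were 71.9% beside 52.8% in C-iPSC and 69.5% beside 51.1% in mESC. Where the neighbours had a mean of at least 30% in 4F-iPSC, there were 78 such CpGs, and 75 of them (96.2%) were below those neighbours, by a median difference of -16.7 points. Of 11325 other promoter CpGs with such neighbours 55.5% were below, with a median of -1.22 points. For C-iPSC 67 of 68 E-box CpGs (98.5%) were below, against 56.3% of other CpGs, and for mESC 50 of 51 (98.0%), against 62.5%.

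**Figure D5:**
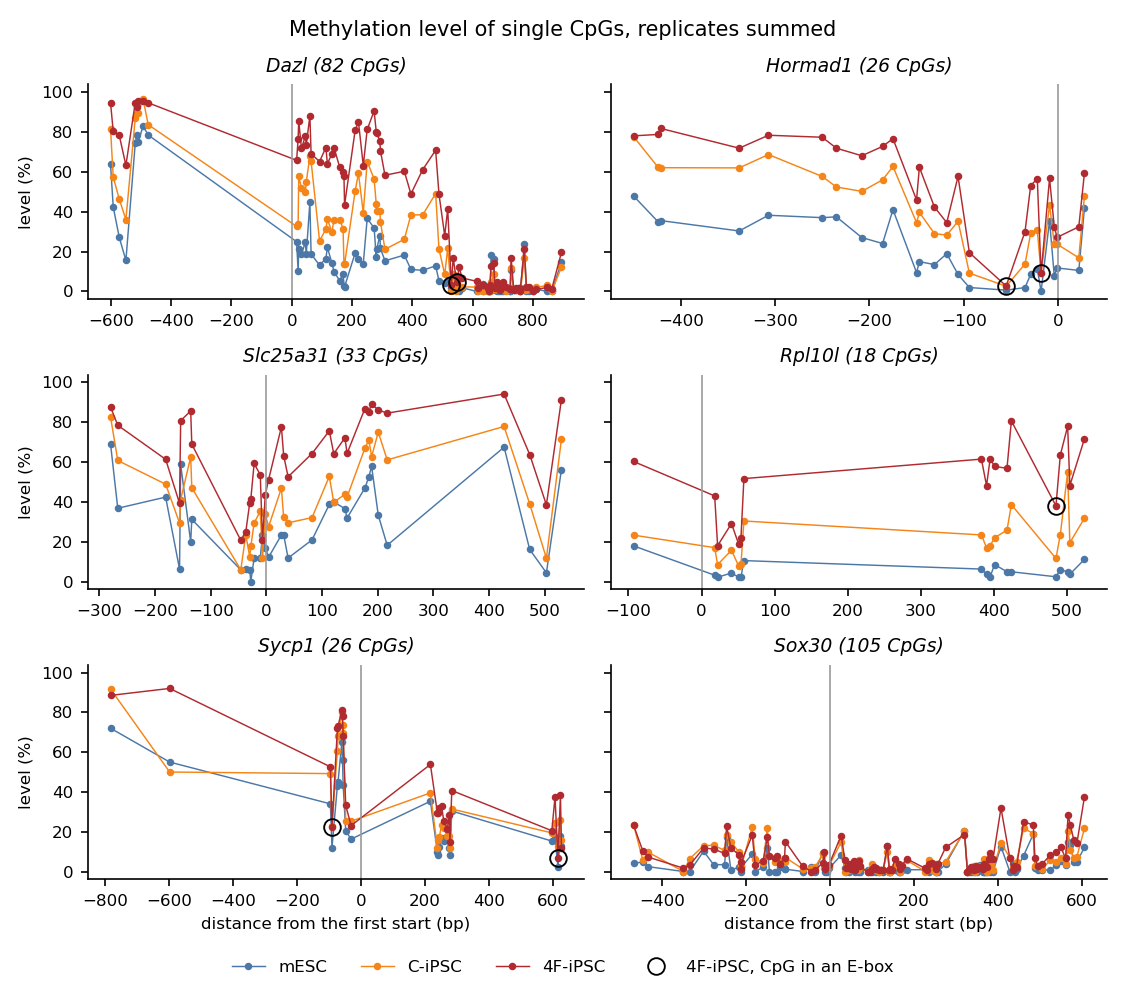
Level (%) of single compared CpGs, reads of both replicates summed, by distance (bp) from the first start of Dazl, Hormad1, Slc25a31, Rpl10l, Sycp1 and Sox30 in mESC, C-iPSC and 4F-iPSC; lines join neighbouring CpGs and rings mark CpGs in an E-box at their 4F-iPSC level. The genes were chosen after their values were seen, and the ringed Hormad1 CpGs, at 2.74% and 9.05%, lie under their neighbours.

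The list of proteins that repress germline genes, among them Mga, Max, E2f6 and the DNA methyltransferases, had levels near those of all HCPs. Of 21 genes 19 were covered, all of them HCPs and under 10% in each cell type, with medians of 2.32% in mESC, 2.40% in C-iPSC and 3.35% in 4F-iPSC, beside 2.65%, 2.74% and 3.44% for all HCPs. The library medians of this list overlapped, with 2.76% and 2.06% in mESC, 2.10% and 2.74% in C-iPSC, and 2.30% and 4.51% in 4F-iPSC. In 4F-iPSC against mESC 1 of the 19 (5.26%) was called higher, E2f6, by 2.33 points (adjusted p = 0.0171), beside 6.01% of all HCPs. Markers of other cell states were also read. Of 8 pluripotency genes 6 were covered, with medians of 4.24% (3.19% and 6.42% in the mESC libraries), 6.70% and 10.9%, and only Pou5f1 was called, higher in 4F-iPSC than in C-iPSC by 9.82 points (adjusted p = 0.00611). Of 8 fibroblast genes 4 were covered, with medians of 9.57%, 13.3% and 16.5%. In single libraries these medians were 6.81% and 12.3% in mESC, 9.48% and 14.3% in C-iPSC, and 15.3% and 14.3% in 4F-iPSC, and the lowest adjusted p was 0.0671, for Twist2 in 4F-iPSC against mESC. Whether feeder or source cells had a part in the levels of the listed genes was not tested.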

How the data were processed

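RRBS values of 2 replicate libraries each of mESC, C-iPSC and 4F-iPSC were used. According to the submitters' processing notes, reads were aligned with BSMAP 2.90 to mm10 and methylation was called with MOABS. At each CpG the authors deposited a count of the reads and a count of those that were methylated, with no minimum. The fraction that the authors deposited beside them was only checked against the ratio of both counts and differed by at most 5.00e-04. RNA data and fibroblast libraries were not used here.

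Transcription starts were those of GENCODE basic for GRCm38. Promoters were tested with a quasi-binomial regression of methylated reads out of all reads summed per promoter. It used all 6 libraries, with an F test of 2 cell types. The test thus weighs CpGs by their reads, whereas the levels and the differences in points weigh the CpGs of a promoter alike. A difference in points and its p from this test can therefore part where CpGs of unlike depth differ in level. The dispersion was moderated with squeezeVar of limma 3.58.1 (R 4.3.3), with a trend on the level and not below 1, and p-values were adjusted by the Benjamini-Hochberg method over 22310 gene promoters. The other steps used Python 3.11.15, numpy 2.4.6, pandas 2.3.3, scipy 1.17.1 and matplotlib 3.10.9. The test was also tried on simulated data, where it missed part of the differences put in, so a promoter that was not called may still differ. An exact permutation test of 2 libraries against 2 could not give a two-sided p below 0.333. Strong CpGs needed a difference in level above 0.333.

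Values in every library were given for genes that differed by more than 33.3 points between cell types, for the 5 highest in mESC and for the 5 lowest over all libraries, and the others by role with up to 4 examples. The members and the lists were chosen with earlier results of these data known. The alternatives were other promoter windows and starts, other read minimums, soft-masked CpGs left out, other tests, a replicate block and each library left out in turn.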

Additional observations from a re-analysis of the deposited data

How the results depend on the processing

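Each count of calls was recomputed under 10 alternatives beside the replicate block and the left-out libraries. For 4F-iPSC against mESC 9 of the 10 stayed within 1.5 times the 27 calls, and for C-iPSC against mESC (13) and 4F-iPSC against C-iPSC (11) 8 of the 10 did. Fisher's exact test per promoter, with replicates pooled and the minimum difference of strong CpGs, gave 8, 0 and 1 calls. This alternative changed the test and added the minimum together, so the drop cannot be assigned to either alone. limma on promoter levels gave 26, 6 and 3, and 23, 5 and 2 of its calls were among the 27, 13 and 11. With a replicate block the calls were 28, 18 and 14, and every call without the block was kept. Same-numbered libraries had no common direction of deviation over 22310 promoters. The correlation was 0.168 for mESC and C-iPSC, -0.193 for mESC and 4F-iPSC and -0.0456 for C-iPSC and 4F-iPSC. These values cannot tell whether same-numbered libraries were handled together. Leaving out 1 library gave between 18 and 28, 2 and 22, and 4 and 21 calls. Where that left a cell type with 1 library, it was assumed to vary like the others.

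For strongly hypermethylated CpGs, a difference above 0.5 gave 62, 2 and 3 in place of 190, 25 and 43, by the stricter minimum itself. Leaving out 1 library gave between 157 and 191, 14 and 46, and 17 and 74. The median level in mESC was 14.8% with at least 10 reads in every library, and the cause was not tested. Left-out libraries gave medians between 13.9% and 20.2% in mESC, 23.7% and 33% in C-iPSC, and 40.6% and 44.8% in 4F-iPSC. Promoters with 1 to 3 compared CpGs, 10 genes with no read and 2 libraries a group limit what can be said of single genes.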

Other observations

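A second list held 40 further germline genes, of which 26 were covered. Their median levels were 4.80% in mESC, 7.21% in C-iPSC and 14.4% in 4F-iPSC, so they were nearer to all promoters than the 36 listed genes were. Of the 26, 14 (53.8%) were called higher in 4F-iPSC than in mESC, beside 22.5% of all promoters. In C-iPSC against mESC the count was 7 (26.9%, beside 6.54%), and in 4F-iPSC against C-iPSC it was 3 (11.5%, beside 4.39%).

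Tuba3a, a testis tubulin, had the largest difference of this list, and was chosen after its values were seen. It had 12.8% and 23.4% in mESC, 46.8% and 57.4% in C-iPSC, and 84.2% and 81.0% in 4F-iPSC over 10 CpGs, with no overlap of cell types. The differences were 64.5 points between 4F-iPSC and mESC (adjusted p = 5.52e-06), 34.0 between C-iPSC and mESC (adjusted p = 0.00355) and 30.5 between 4F-iPSC and C-iPSC (adjusted p = 0.00395). Tex19.2, a relative of Tex19.1, was higher in 4F-iPSC than in mESC by 36.3 points (adjusted p = 3.15e-05) and Gpat2, a partner of Piwi proteins, by 34.4 points (adjusted p = 5.75e-05). At the low end Ddx25, a helicase of round spermatids, had 2.56% and 3.01% in mESC and 2.82% and 3.36% in 4F-iPSC over 52 CpGs.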
